A study of Drosophila melanogaster with 9 samples.

Results

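The genes described here are the DNA replication genes of cells sorted as intestinal stem cells (ISCs) from the adult *Drosophila melanogaster* midgut. They came from a list of 40 gene symbols covering the MCM helicase, origin licensing, the GINS complex, the sliding clamp and its loader, single-stranded DNA binding, nucleotide supply, fork and flap processing, and chromatin assembly. Of these, 35 were found among the 17481 genes of the deposited table, *RpA-70* under its current symbol RPA1, and all 35 passed the filter on low values. *Mcm3*, *Orc1*, *RPA2*, *RPA3* and *Top2* were not matched by gene identifier and are not analysed here. RNA-seq was carried out on FACS-sorted GFP+ cells from flies labelled as 5 to 7 days old, in 3 groups of 3 libraries: *gro-RNAi*, in which the co-repressor gene *groucho* (*gro*) was targeted, *Notch-RNAi*, in which the receptor gene *Notch* (*N*) was targeted, and the control, which expressed GFP alone and is labelled as wild type. The *gro-RNAi* and control flies carried *Dl-Gal4* and *UAS-GFP* with the temperature-sensitive repressor *Gal80ts*, so that the transgenes were on in cells with *Delta* (*Dl*) driver activity after a temperature shift. The RNA-seq methods describe *Notch-RNAi* no further, and do not say which *gro-RNAi* line was used. Each library pooled the midguts of many flies, and its RNA was amplified before sequencing. In such bulk samples, fewer cells of a type and less RNA per cell cannot be told apart.

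A chromosome is copied once per division because loading and firing of the helicase are separated in time. The origin recognition complex (ORC), Cdc6 and Double parked (Dup, the fly Cdt1) place rings of MCM proteins on DNA before S phase, and Geminin binds Dup to stop further loading. In S phase, GINS and Cdc45 turn the ring into an active helicase, polymerases copy both strands while held by the clamp PCNA, RPA coats the exposed single strands, and histone chaperones rebuild chromatin behind the fork. Transcription of many of these genes rises at the entry into S phase under E2F factors. In the midgut, ISCs are the main dividing cells, and their daughters become enteroblasts, enterocytes or enteroendocrine cells.

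The values are FPKM, fragment numbers scaled by transcript length and by library size. This scaling is meant to let levels be set side by side between genes. Any effect of the RNA amplification on the order of genes was not tested. Steps in the low FPKM values gave estimated depths of 7630000 to 18800000 reads, and the *Notch-RNAi* libraries were the 3 deepest. The 10 most abundant genes held 24.3 to 34.8% of all FPKM in *gro-RNAi*, 18.5 to 19.1% in *Notch-RNAi* and 31.0 to 38.5% in control libraries. The targeted *gro* had 3.69, 13.8 and 9.53 FPKM in *gro-RNAi* and 19.9, 27.8 and 15.3 FPKM in control libraries, without overlap, but the difference did not pass the test (log2 -1.36 ± 0.44, standard error (SE), limma adjusted p = 0.094). *N* had 13.9, 16.1 and 9.78 FPKM in *Notch-RNAi* and 40.9, 36.9 and 28.5 FPKM in control libraries, and fell (log2 -1.42 ± 0.22, SE, limma adjusted p = 0.00242). *Dl* was the only ISC marker used, because *esg* was not matched by gene identifier. *Dl* was present in every library and was called higher in both RNAi groups. Its means were 42.0 FPKM in *gro-RNAi* and 46.7 FPKM in *Notch-RNAi*, against 5.86 FPKM in control. The paper reports that *gro* depletion leaves Dl on in presumptive enteroblasts, so there *Dl* does not mark ISCs alone. The 14 enteroendocrine markers summed to 2085.0 to 3532.7 FPKM in *gro-RNAi*, 3221.6 to 3532.2 FPKM in *Notch-RNAi* and 1360.5 to 2707.4 FPKM in control libraries. They were not all abundant. Their means ran from 1.17 FPKM (*Syt1*) to 962 FPKM (*AstC*) in *gro-RNAi* and from 0.719 FPKM (*Syt1*) to 514 FPKM (*AstC*) in control. In *Notch-RNAi* they ran from 1.52 FPKM (*Dh31*) to 1086.2 FPKM (*AstC*). Of these 14, 1 was called higher with *gro-RNAi*, while 6 were called higher and 3 (*Tk*, *NPF* and *Dh31*) lower with *Notch-RNAi*. The 11 enterocyte markers summed to 242 to 776 FPKM in *gro-RNAi*, 98.3 to 785 FPKM in *Notch-RNAi* and 103 to 417 FPKM in control libraries, with 1 called higher with *gro-RNAi* and 1 called lower with *Notch-RNAi*. The 8 visceral muscle markers summed to at most 4.51 FPKM in any library and the 4 hemocyte markers to at most 0.759 FPKM. The part of these markers and of depth in the results that follow was not tested.

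Most replication genes were called higher than control in each RNAi group. With *gro-RNAi*, 19 of 35 were called higher (54.3%) and 0 lower, beside 6.26% of all 11493 genes tested called higher and 1.23% called lower. At an unadjusted p under 0.05 in the same limma fit, 30 were higher and 0 lower, beside 20.5% and 4.41% of all genes. The median log2 difference of the 35 genes was 1.12, beside 0.27 over all genes tested, and the genes ranged from -0.01 for *Psf1* to 2.55 for *Mcm5*. In 27 of them (77.1%) all 3 *gro-RNAi* libraries lay above all 3 control libraries, which 21.5% of all genes did. Here and below, differences are on the scale log2(FPKM + 0.1), which understates the change of genes with low levels, and a gene is called when its limma p, adjusted by Benjamini-Hochberg over all genes tested, was under 0.05.

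With *Notch-RNAi*, 28 of 35 were called higher (80.0%) and 1, *Mcm10*, was called lower, beside 24.4% of all genes called higher and 4.29% called lower. At an unadjusted limma p under 0.05, 31 were higher and 1 lower, beside 35.1% and 6.59% of all genes. The median log2 difference was 1.50, beside 0.46 over all genes, and the range ran from -1.60 for *Mcm10* to 3.08 for *Mcm5*. All 3 *Notch-RNAi* libraries lay above all 3 control libraries in 32 genes (91.4%), and in 39.0% of all genes. Both comparisons use the same 3 control libraries, so they are not independent of each other.

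The median log2 difference over all genes was positive too, at the 0.27 and 0.46 given above. FPKM are scaled to library size, so these medians do not measure total RNA. The part of the 10 most abundant genes, whose share was lowest in *Notch-RNAi*, was not tested. When the libraries were centred on the same median, 13 of 35 replication genes (37.1%) were still called higher with *gro-RNAi*, beside 1.84% of all genes, and their median difference was 0.76. With *Notch-RNAi* 19 of 35 (54.3%) were still called higher, beside 8.34% of all genes, with a median difference of 0.99. Centring changed the balance of calls over all genes, from 720 higher and 141 lower to 212 higher and 309 lower with *gro-RNAi*, and from 2806 higher and 493 lower to 958 higher and 1294 lower with *Notch-RNAi*. When only the *gro-RNAi* and control libraries entered the fit, 10 of the 19 *gro-RNAi* calls were kept. These were *Mcm2*, *dpa*, *Mcm5*, *Mcm6*, *Mcm7*, *PCNA*, *RnrL*, *Ts*, *dUTPase* and *Claspin*, and the estimated differences did not change.

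**Figure D1:**
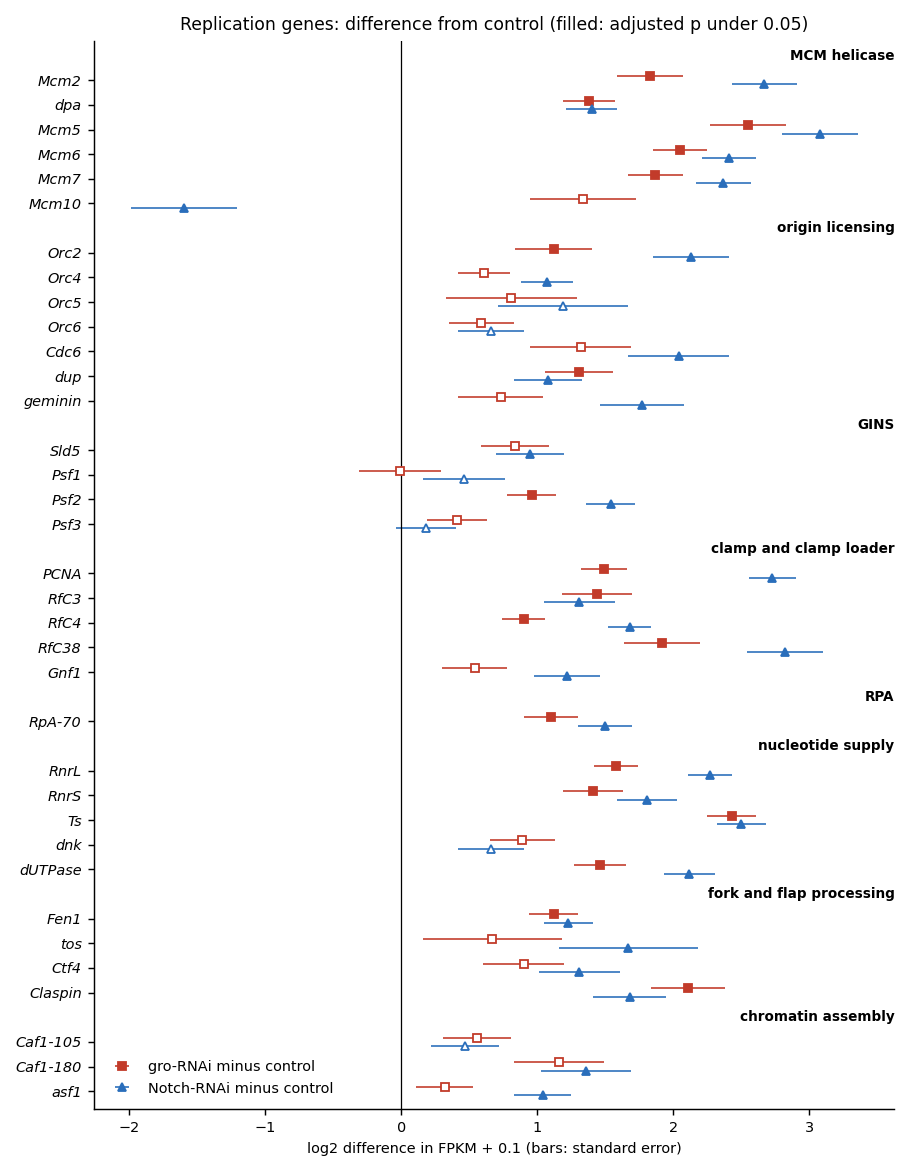
Log2 difference in FPKM + 0.1 from control for the 35 replication genes, grouped by role, with *gro-RNAi* as red squares above *Notch-RNAi* as blue triangles. Bars are standard errors and filled symbols passed the limma test. The MCM ring genes, the clamp and loader genes and most nucleotide genes lie to the right of 0 in both groups. *Psf1* (-0.01 in *gro-RNAi* and 0.46 in *Notch-RNAi*) and *Psf3* (0.41 and 0.18) have open symbols. *Mcm10* lies on opposite sides with 1.34 in *gro-RNAi* and -1.60 in *Notch-RNAi*.

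Within each library the median replication gene was at log2 3.62, 4.01 and 3.80 in *gro-RNAi*, at 4.24, 3.91 and 3.90 in *Notch-RNAi*, and at 2.32, 2.49 and 2.48 in control. The 35 genes together held 1278.0, 1200.0 and 1271.1 FPKM in *gro-RNAi* libraries, 1960.1, 1827.9 and 1919.8 FPKM in *Notch-RNAi* libraries, and 479, 550 and 594 FPKM in control libraries. Neither RNAi group overlapped the control in either measure. The summed level also separated the 2 RNAi groups, while the median level did not. *dUTPase* and *PCNA* together made up 62.7% of the difference between the mean sums of *gro-RNAi* and *Notch-RNAi*.

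*dUTPase* was the most abundant in all groups, at 459 ± 45.7 FPKM in *gro-RNAi*, 722 ± 70.5 FPKM in *Notch-RNAi* and 169 ± 40.7 FPKM in control (SD, n = 3 each). *PCNA* and *geminin* took the next 2 places in each group, *PCNA* ahead in both RNAi groups and *geminin* ahead in control. In control, *geminin* at 41.5 to 59.2 FPKM and *PCNA* at 29.9 to 44.0 FPKM overlapped, so their order there is within the spread. They also overlapped in *gro-RNAi*, at 98.2 to 111 FPKM for *PCNA* and 52.0 to 124 FPKM for *geminin*, where *RnrS* at 62.0 to 109 FPKM lay in the same range. In *Notch-RNAi* the 3 genes were separate, with *PCNA* above *geminin* and *geminin* above *RnrS*. At the other end, *tos*, *Cdc6*, *Claspin* and *Ctf4* had control means of 0.0601, 0.392, 0.581 and 0.593 FPKM.

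**Figure D2:**
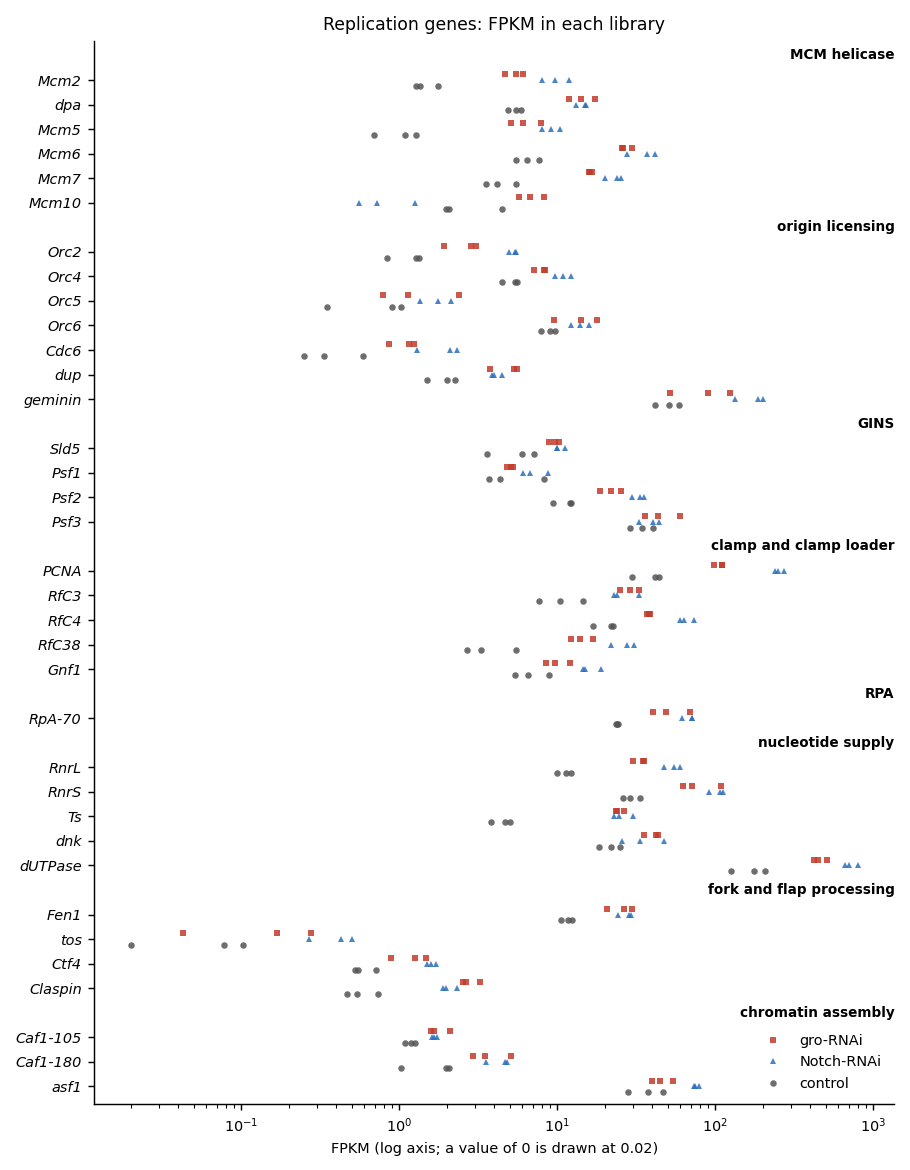
FPKM of the 35 replication genes in each of the 9 libraries on a log axis, with *gro-RNAi* as red squares, *Notch-RNAi* as blue triangles and control as grey circles. Levels span from the single reads of *tos* to 800 FPKM of *dUTPase*, and in most genes the control circles lie to the left of both RNAi groups.

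By role, the 6 MCM genes had the largest median log2 differences, 1.85 with *gro-RNAi* and 2.39 with *Notch-RNAi*. All 5 ring genes measured, *Mcm2*, *dpa* (the fly Mcm4), *Mcm5*, *Mcm6* and *Mcm7*, were called higher in both comparisons with control. *Mcm5* (3R, 10788524 to 10791150, plus strand) had 7.91, 6.08 and 5.11 FPKM in *gro-RNAi* libraries, 10.4, 9.14 and 7.96 FPKM in *Notch-RNAi* libraries, and 1.09, 1.27 and 0.692 FPKM in control libraries. Every RNAi library was several times above every control library. The log2 difference was 2.55 ± 0.28 (SE, limma adjusted p = 0.00207) for *gro-RNAi* and 3.08 ± 0.28 (SE, limma adjusted p = 0.0003) for *Notch-RNAi*. The control values rest on an estimated 20 to 39 reads per library.

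*Mcm2* had 4.70, 6.04 and 5.52 FPKM in *gro-RNAi*, 11.8, 9.73 and 7.97 FPKM in *Notch-RNAi* and 1.35, 1.75 and 1.28 FPKM in control libraries. The 3 groups did not overlap. It rose by log2 1.83 ± 0.24 (SE, limma adjusted p = 0.00412) with *gro-RNAi* and 2.67 ± 0.24 (SE, limma adjusted p = 0.000277) with *Notch-RNAi*. *Mcm6* had the highest mean of the ring genes in each group, at 25.8, 29.7 and 26.0 FPKM in *gro-RNAi*, 36.7, 41.6 and 27.5 FPKM in *Notch-RNAi* and 7.71, 6.41 and 5.47 FPKM in control libraries. Its RNAi groups overlapped each other and lay far above control. In control its range overlapped that of *dpa*, and in replicate 3 *dpa* was as high. Its lowest control value, 5.47 FPKM, was just above the highest of *Mcm7*, 5.46 FPKM. *Mcm7* had 16.5, 16.0 and 15.8 FPKM in *gro-RNAi*, 23.7, 25.2 and 19.9 FPKM in *Notch-RNAi* and 4.18, 3.54 and 5.46 FPKM in control libraries. Its log2 differences were 1.87 with *gro-RNAi* and 2.37 with *Notch-RNAi*, and those of *Mcm6* were 2.05 and 2.41, all called. *dpa* changed least of the 5, by log2 1.38 ± 0.19 (SE, limma adjusted p = 0.00489) with *gro-RNAi* and 1.40 ± 0.19 (SE, limma adjusted p = 0.00157) with *Notch-RNAi*, at means of 14.4 FPKM in *gro-RNAi* and 14.5 FPKM in *Notch-RNAi* against 5.43 FPKM in control.

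The ring is built from subunits in equal number, but their transcripts were not equal. In each library the most abundant of the 5 ring genes exceeded the least abundant by 5.49, 4.92 and 5.09 times in *gro-RNAi*, by 3.52, 4.55 and 3.46 times in *Notch-RNAi* and by 7.07, 5.05 and 7.92 times in control. The *Notch-RNAi* ratios lay below all others, and the *gro-RNAi* and control ratios overlapped.

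*Mcm10*, which binds the loaded helicase and is needed to start unwinding, did not follow the ring. It had 5.69, 8.29 and 6.70 FPKM in *gro-RNAi* libraries, 0.720, 0.553 and 1.26 FPKM in *Notch-RNAi* libraries, and 4.44, 2.05 and 1.97 FPKM in control libraries. The 3 groups did not overlap, with *gro-RNAi* above and *Notch-RNAi* below control. With *Notch-RNAi* it fell (log2 -1.60 ± 0.39, SE, limma adjusted p = 0.017). Without *Notch-RNAi* replicate 1 or replicate 2 the adjusted p was 0.0673 or 0.0724, so this call needs both libraries. With *gro-RNAi* its difference of 1.34 ± 0.39 (SE) did not pass (limma adjusted p = 0.0722), although without control replicate 1, the highest control, it did (adjusted p = 0.0343). Compared directly, it was higher in *gro-RNAi* than in *Notch-RNAi* by log2 2.94 ± 0.39 (SE, limma adjusted p = 0.00507), and this call held without any single library.

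*Mcm10* (2L, 21179933 to 21182812, plus strand) shares 367 exonic bases with *Ret*, a receptor tyrosine kinase gene on the other strand. *Ret* had 2.82, 2.11 and 2.52 FPKM in *gro-RNAi*, 0.200, 0.178 and 0.201 FPKM in *Notch-RNAi* and 0.650, 0.0915 and 0.729 FPKM in control libraries. It was also highest in *gro-RNAi*, with a log2 difference from control of 2.38 ± 0.54 (SE, limma adjusted p = 0.0323), and between *gro-RNAi* and *Notch-RNAi* of 3.13 (limma adjusted p = 0.0136). Control replicate 2 stood far below the other control libraries. The call against control held in 4 of 9 alternative settings and was lost without any 1 of the *gro-RNAi* libraries (adjusted p 0.0758 to 0.0868). The direct call held in all 9 settings and was lost without *gro-RNAi* replicate 2 or 3 or *Notch-RNAi* replicate 1 or 2 (adjusted p 0.0508 to 0.0731). The sources used here do not say whether reads were counted by strand, and the part of *Ret* reads in the *Mcm10* values was not tested. In all, 13 of the 35 genes share exonic bases with a gene on the other strand, by at most 158 bases in 8 of them, and those with longer overlaps are named with their values. For *Mcm7* the partner is an antisense RNA to which an estimated 0 to 3 reads per library were assigned. The part of the partner's reads was not tested for *Mcm7*, *RfC38* or *dUTPase* either.

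**Figure D3:**
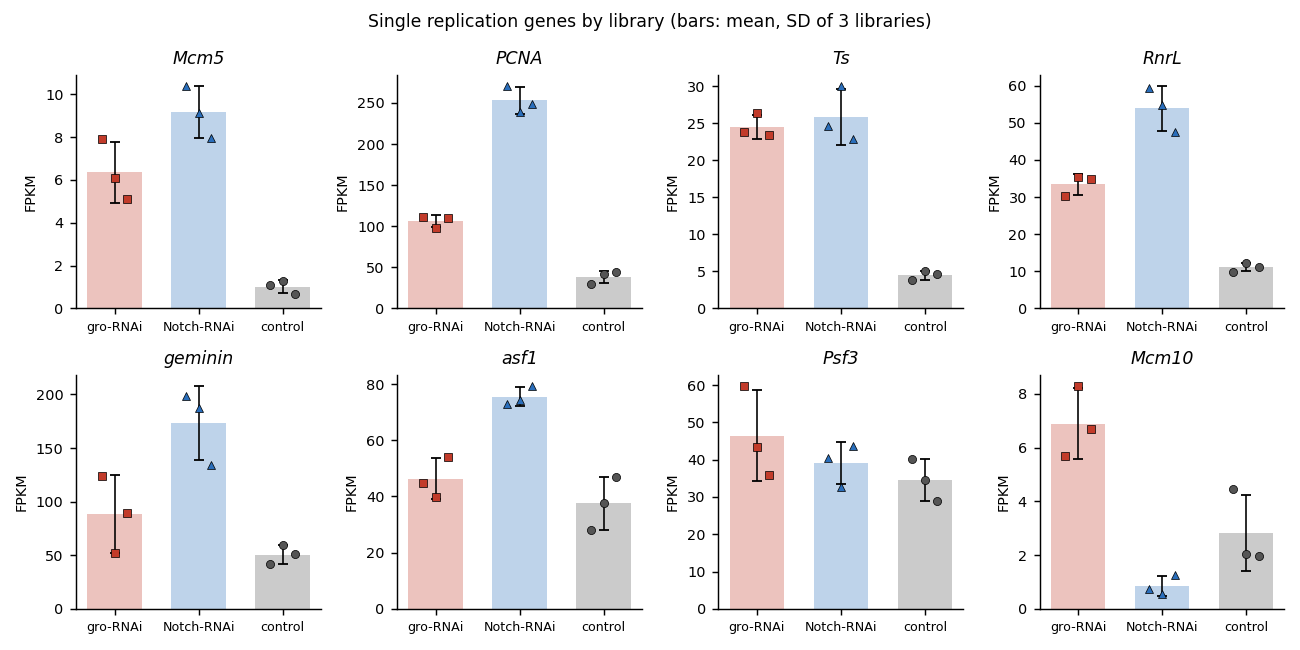
FPKM of 8 replication genes by library, each panel with *gro-RNAi*, *Notch-RNAi* and control from left to right, bars for the mean and whiskers for the SD of 3 libraries. *Mcm5*, *PCNA*, *Ts* and *RnrL* are low in control and high in both RNAi groups, *geminin* and *asf1* are high in *Notch-RNAi*, *Psf3* overlaps in all groups, and *Mcm10* is lowest in *Notch-RNAi*.

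Of the 7 origin licensing genes, 2 were called higher with *gro-RNAi* and 5 with *Notch-RNAi*, with median log2 differences of 0.81 with *gro-RNAi* and 1.19 with *Notch-RNAi*. *Orc2*, a core ORC subunit, had 3.08, 1.93 and 2.84 FPKM in *gro-RNAi*, 5.39, 4.93 and 5.50 FPKM in *Notch-RNAi* and 1.27, 0.838 and 1.33 FPKM in control libraries. The 3 groups were separate. Its rise with *Notch-RNAi* was log2 2.13 ± 0.28 (SE, limma adjusted p = 0.00123). With *gro-RNAi* it was 1.12 ± 0.28 (SE, limma adjusted p = 0.0429), a call lost when any 1 of the 6 libraries was left out (adjusted p 0.056 to 0.109). *Orc4* had a log2 difference of 0.61 with *gro-RNAi*, which did not pass, and rose by 1.07 with *Notch-RNAi* (limma adjusted p = 0.00437), a call lost on centring. *Orc5*, at an estimated 7 to 20 reads in control libraries, and *Orc6* passed in neither comparison. Their differences from control were 0.81 and 0.59 with *gro-RNAi* and 1.19 and 0.66 with *Notch-RNAi*.

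Of the loading factors, *Cdc6* had 1.24, 0.865 and 1.16 FPKM in *gro-RNAi*, 2.32, 2.09 and 1.29 FPKM in *Notch-RNAi* and 0.334, 0.592 and 0.251 FPKM in control libraries, the last on an estimated 7 to 18 reads. Neither RNAi group overlapped the control. The difference passed with *Notch-RNAi* (log2 2.04 ± 0.37, SE, limma adjusted p = 0.0051) and not with *gro-RNAi* (1.32 ± 0.37, SE, adjusted p = 0.0659). *dup* rose in both, by log2 1.31 with *gro-RNAi* (limma adjusted p = 0.0189) and 1.08 with *Notch-RNAi* (limma adjusted p = 0.0138), to means of 4.89 FPKM in *gro-RNAi* and 4.12 FPKM in *Notch-RNAi* against 1.91 FPKM in control. Both *dup* calls were lost when the libraries were centred, and 1 each without *gro-RNAi* replicate 3 (adjusted p = 0.0671) or *Notch-RNAi* replicate 1 (adjusted p = 0.0631).

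*geminin*, the inhibitor of Dup, was far more abundant than *dup* in every library. It had 124, 52.0 and 89.4 FPKM in *gro-RNAi*, 199, 187 and 134 FPKM in *Notch-RNAi* and 41.5, 59.2 and 51.1 FPKM in control libraries. *gro-RNAi* replicate 2 lay inside the control range, and all *Notch-RNAi* libraries lay above it. The log2 difference was 0.73 ± 0.31 (SE, limma adjusted p = 0.177) with *gro-RNAi* and 1.77 ± 0.31 (SE, limma adjusted p = 0.00408) with *Notch-RNAi*. The *geminin* level divided by that of *dup* was 23.1, 13.8 and 16.1 in *gro-RNAi*, 44.2, 46.9 and 34.6 in *Notch-RNAi* and 27.9, 29.3 and 22.8 in control libraries. The *Notch-RNAi* ratios lay above control, and the *gro-RNAi* ratios lay below it except for 1 library at its lower edge. These ratios were chosen after the values were seen and carry no test.

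The GINS complex joins the MCM ring when an origin fires, and its 4 genes had median log2 differences of 0.62 with *gro-RNAi* and 0.70 with *Notch-RNAi*, with 1 and 2 called higher. *Psf2* rose in both groups, with 25.2, 18.6 and 21.8 FPKM in *gro-RNAi*, 35.5, 29.5 and 33.3 FPKM in *Notch-RNAi* and 12.0, 12.2 and 9.35 FPKM in control libraries, which are separate groups. Its log2 differences were 0.96 ± 0.18 (SE, limma adjusted p = 0.0185) with *gro-RNAi* and 1.54 ± 0.18 (SE, limma adjusted p = 0.000898) with *Notch-RNAi*. The *gro-RNAi* call was lost on centring, and without *gro-RNAi* replicate 3 (adjusted p = 0.0582) or control replicate 3 (adjusted p = 0.0588). *Sld5* passed with *Notch-RNAi* (log2 0.95 ± 0.25, SE, limma adjusted p = 0.0231), with 0.84 ± 0.25 for *gro-RNAi* (SE, adjusted p = 0.0785), and its 2 RNAi groups overlapped. The *Sld5* call was lost on centring and without *Notch-RNAi* replicate 1 (adjusted p = 0.0879) or replicate 2 (adjusted p = 0.068).

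*Psf1* and *Psf3* passed in neither comparison. *Psf1* had 5.13, 4.83 and 5.24 FPKM in *gro-RNAi*, 6.71, 8.73 and 6.08 FPKM in *Notch-RNAi* and 4.36, 3.71 and 8.27 FPKM in control libraries, where replicate 3 stood above the other two. Without that library the *Notch-RNAi* difference passed (log2 0.80, limma adjusted p = 0.0468). *Psf3* had 59.8, 43.5 and 36.0 FPKM in *gro-RNAi*, 40.4, 32.8 and 43.8 FPKM in *Notch-RNAi* and 40.1, 34.6 and 28.9 FPKM in control libraries, with all groups overlapping. It was the most abundant GINS gene. Its exons share 831 bases with *CG17841* on the other strand, which had means of 24.4 FPKM in *gro-RNAi*, 34.8 FPKM in *Notch-RNAi* and 21.0 FPKM in control, and the part of its reads in the *Psf3* values was not tested. With *Notch-RNAi* the differences of *Psf1* (0.46) and *Psf3* (0.18) turned to -0.04 and -0.32 when the libraries were centred.

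The sliding clamp *PCNA* (2R, 20261754 to 20262883, minus strand) separated all 3 groups. It had 111, 98.2 and 110 FPKM in *gro-RNAi* libraries, 271, 239 and 249 FPKM in *Notch-RNAi* libraries, and 29.9, 41.4 and 44.0 FPKM in control libraries. Its means were 2.77 times the control in *gro-RNAi* and 6.58 times in *Notch-RNAi*. The log2 differences were 1.49 ± 0.17 (SE, limma adjusted p = 0.00233) with *gro-RNAi* and 2.73 ± 0.17 (SE, limma adjusted p = 6.39e-05) with *Notch-RNAi*, and both calls held in all 9 alternative settings and without any single library.

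Of the clamp loader genes, *RfC3*, *RfC4* and *RfC38*, which encode small subunits, were called higher in both groups, and *Gnf1*, the large subunit, with *Notch-RNAi*. *RfC38* had 12.2, 16.8 and 13.9 FPKM in *gro-RNAi*, 30.6, 27.7 and 21.8 FPKM in *Notch-RNAi* and 2.67, 5.50 and 3.30 FPKM in control libraries. It changed most among the loader genes, by log2 1.92 ± 0.28 (SE, limma adjusted p = 0.00561) with *gro-RNAi* and 2.82 ± 0.28 (SE, limma adjusted p = 0.000426) with *Notch-RNAi*, and shares 404 exonic bases with *Nup160* on the other strand, whose own differences were 0.82 with *gro-RNAi* and 0.87 with *Notch-RNAi*. *RfC4* had 38.5, 38.1 and 36.9 FPKM in *gro-RNAi*, 73.0, 63.2 and 60.0 FPKM in *Notch-RNAi* and 16.9, 22.5 and 22.0 FPKM in control libraries, with all groups separate. *RfC3* had means of 28.9 FPKM in *gro-RNAi* and 26.5 FPKM in *Notch-RNAi* against 10.9 FPKM in control, with log2 differences of 1.44 and 1.31 in these comparisons. *Gnf1* rose by log2 1.22 with *Notch-RNAi* (limma adjusted p = 0.00639) and had 0.54 with *gro-RNAi* (adjusted p = 0.191). On centring *RfC4* lost its *gro-RNAi* call and *RfC3* its *Notch-RNAi* call. Without *gro-RNAi* replicate 2 the *gro-RNAi* calls of *RfC3* (adjusted p = 0.0589) and *RfC4* (adjusted p = 0.0517) were lost.

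*PCNA* changed more than *RfC4* in the same libraries. The ratio of *PCNA* to *RfC4* was 2.88, 2.57 and 2.99 in *gro-RNAi*, 3.71, 3.78 and 4.14 in *Notch-RNAi* and 1.77, 1.84 and 2.00 in control libraries. The 3 groups did not overlap. This ratio is the same under any scaling by 1 factor per library, and it was chosen after the values were seen.

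**Figure D4:**
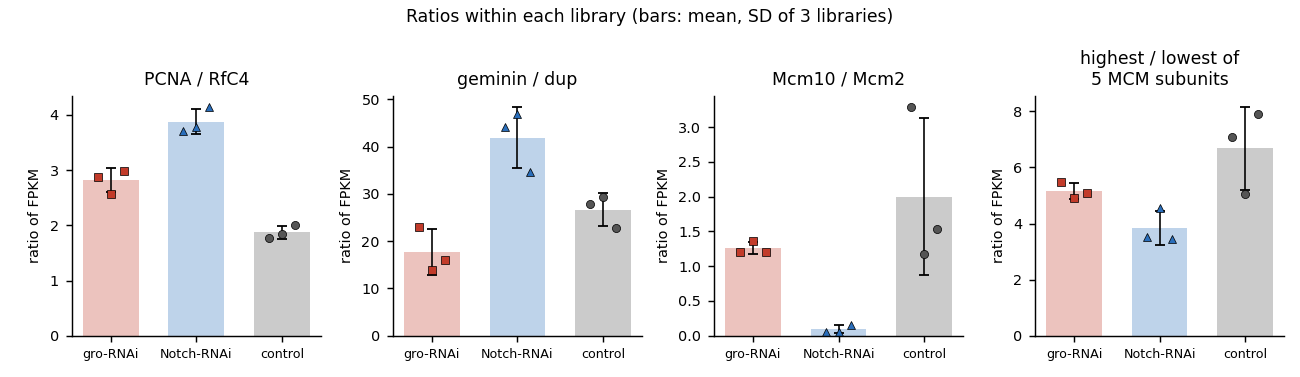
Ratios of FPKM within each library, from left to right *PCNA* over *RfC4*, *geminin* over *dup*, *Mcm10* over *Mcm2*, and the highest over the lowest of the 5 MCM ring genes, each with *gro-RNAi*, *Notch-RNAi* and control from left to right, bars for the mean and whiskers for the SD of 3 libraries. *PCNA* over *RfC4* averages 2.81 in *gro-RNAi*, 3.88 in *Notch-RNAi* and 1.87 in control, and *Mcm10* over *Mcm2* averages 1.27, 0.092 and 2.00 in these groups.

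*RpA-70* encodes the large subunit of RPA. It had 40.2, 69.0 and 48.7 FPKM in *gro-RNAi*, 71.3, 61.3 and 71.1 FPKM in *Notch-RNAi* and 24.0, 24.3 and 23.6 FPKM in control libraries. Control libraries were nearly equal, and both RNAi groups lay above them and overlapped each other. It rose by log2 1.10 ± 0.20 (SE, limma adjusted p = 0.0145) with *gro-RNAi* and 1.50 ± 0.20 (SE, limma adjusted p = 0.00133) with *Notch-RNAi*. The *gro-RNAi* call was lost on centring and without control replicate 3 (adjusted p = 0.0524). The gene (3R, 8262120 to 8264451, minus strand) lies back to back with *Mcm2* (3R, 8264970 to 8267924, plus strand), with 518 bases between them, the closest pair among the 35 genes. *Sld5* lies 5745 bases from *gro* itself, on opposite strands. The 35 genes were otherwise spread over the genome, with 9 on 2L, 10 on 2R, 6 on 3L, 7 on 3R and 3 on X.

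The genes of nucleotide supply were called higher in 4 of 5 cases in each comparison, with median log2 differences of 1.46 for *gro-RNAi* and 2.12 for *Notch-RNAi*. *Ts*, thymidylate synthase, had 23.8, 26.4 and 23.4 FPKM in *gro-RNAi*, 24.6, 30.1 and 22.9 FPKM in *Notch-RNAi* and 3.83, 5.00 and 4.68 FPKM in control libraries. The RNAi groups overlapped each other at several times the control level. Its log2 differences were 2.43 ± 0.18 (SE, limma adjusted p = 0.000657) with *gro-RNAi* and 2.5 ± 0.18 (SE, limma adjusted p = 0.000117) with *Notch-RNAi*, and between the RNAi groups it was -0.07 ± 0.18 (SE). *RnrL*, the large subunit of ribonucleotide reductase, had 30.2, 35.3 and 34.8 FPKM in *gro-RNAi*, 59.5, 54.9 and 47.5 FPKM in *Notch-RNAi* and 9.94, 12.2 and 11.3 FPKM in control libraries, with the 3 groups separate. It rose by log2 1.58 ± 0.16 (SE, limma adjusted p = 0.00191) with *gro-RNAi* and 2.27 ± 0.16 (SE, limma adjusted p = 0.000115) with *Notch-RNAi*. The small subunit *RnrS* had 109, 62.0 and 70.9 FPKM in *gro-RNAi*, 107, 112 and 91.5 FPKM in *Notch-RNAi* and 33.3, 26.1 and 29.0 FPKM in control libraries. Both subunit genes were above control in every RNAi library, and *RnrS* exceeded *RnrL* in every library, by 1.76 to 3.62 times in *gro-RNAi*, 1.79 to 2.04 times in *Notch-RNAi* and 2.15 to 3.35 times in control.

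*dUTPase*, which removes dUTP and so keeps uracil out of DNA, had 420, 449 and 509 FPKM in *gro-RNAi*, 704, 663 and 800 FPKM in *Notch-RNAi* and 126, 175 and 207 FPKM in control libraries. The 3 groups were separate, with log2 differences of 1.46 ± 0.19 (SE, limma adjusted p = 0.0042) with *gro-RNAi* and 2.12 ± 0.19 (SE, limma adjusted p = 0.000305) with *Notch-RNAi*. An annotated antisense RNA spans the gene, and an estimated 0 to 6 reads per library were assigned to it, against at least 1155 for *dUTPase*. With the use of strand not known, this split of reads between the 2 genes was not tested. *dnk*, the deoxyribonucleoside kinase of the salvage route, was the exception. It had 43.1, 42.4 and 35.3 FPKM in *gro-RNAi*, 33.2, 25.6 and 47.4 FPKM in *Notch-RNAi* and 25.1, 18.3 and 22.0 FPKM in control libraries. All RNAi libraries lay above all control libraries, but neither difference passed (log2 0.89 with *gro-RNAi*, limma adjusted p = 0.0535, and 0.66 with *Notch-RNAi*, limma adjusted p = 0.0631). Without *Notch-RNAi* replicate 2 the *Notch-RNAi* difference passed (adjusted p = 0.0404).

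Among fork and flap genes, 2 of 4 were called higher with *gro-RNAi* and all 4 with *Notch-RNAi*. *Claspin*, which links the replication fork to the checkpoint kinase, had 2.65, 3.26 and 2.53 FPKM in *gro-RNAi*, 1.98, 1.88 and 2.31 FPKM in *Notch-RNAi* and 0.738, 0.540 and 0.465 FPKM in control libraries. It was one of 2 replication genes, with *Mcm10*, whose *gro-RNAi* libraries all lay above the *Notch-RNAi* libraries, but the direct difference of log2 0.43 did not pass (limma adjusted p = 0.351). Against control it rose by log2 2.11 ± 0.27 (SE, limma adjusted p = 0.00412) with *gro-RNAi* and 1.68 ± 0.27 (SE, limma adjusted p = 0.00326) with *Notch-RNAi*. *Fen1*, which cuts the flaps of Okazaki fragments, rose by log2 1.12 with *gro-RNAi* and 1.23 with *Notch-RNAi*, to means of 25.5 FPKM in *gro-RNAi* and 27.3 FPKM in *Notch-RNAi* against 11.6 FPKM in control, and both calls were lost when the libraries were centred. *Ctf4*, a fork scaffold protein gene, had log2 differences of 0.90 with *gro-RNAi* (limma adjusted p = 0.103) and 1.31 with *Notch-RNAi* (limma adjusted p = 0.0122), a call lost on centring and without *Notch-RNAi* replicate 1 (adjusted p = 0.0551).

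*tos*, the fly relative of the exonuclease Exo1, was close to the limit of detection. It rested on an estimated 9, 3 and 1 reads in *gro-RNAi*, 11, 16 and 23 reads in *Notch-RNAi* and 2, 3 and 0 reads in control libraries. The *Notch-RNAi* libraries lay above the others except for overlap with *gro-RNAi* replicate 1. Its call with *Notch-RNAi* (limma adjusted p = 0.0382) was lost when any 1 of the 6 libraries was left out (adjusted p 0.0504 to 0.106), and no fold is given at these read numbers. The read numbers cover counting error only, since amplified reads are not independent molecules.

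The 3 chromatin assembly genes had median log2 differences of 0.56 with *gro-RNAi* and 1.04 with *Notch-RNAi*. With *gro-RNAi* 0 of them were called, while 2 had an unadjusted limma p under 0.05, and with *Notch-RNAi* 2 were called higher. *asf1*, a chaperone for histones H3 and H4, had 44.8, 39.8 and 54.1 FPKM in *gro-RNAi*, 73.0, 74.2 and 79.3 FPKM in *Notch-RNAi* and 27.9, 37.7 and 46.9 FPKM in control libraries. The *gro-RNAi* and control libraries overlapped, and the *Notch-RNAi* libraries lay above both. It rose with *Notch-RNAi* (log2 1.04 ± 0.21, SE, limma adjusted p = 0.00721), a call lost on centring, and with *gro-RNAi* its difference of 0.32 (limma adjusted p = 0.37) turned to -0.04 on centring. *Caf1-180*, the large subunit of chromatin assembly factor 1, rose with *Notch-RNAi* (log2 1.36 ± 0.33, SE, limma adjusted p = 0.0168) and had 1.16 ± 0.33 with *gro-RNAi* (SE, adjusted p = 0.0687). The *Notch-RNAi* call was lost on centring and without *Notch-RNAi* replicate 1 (adjusted p = 0.0694) or replicate 2 (adjusted p = 0.0692). *Caf1-105*, the middle subunit, had 0.56 with *gro-RNAi* and 0.47 with *Notch-RNAi*, neither of which passed, and the value for *Notch-RNAi* turned to -0.03 on centring.

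The RNAi groups were then compared with each other. Of the 35 genes, 1 was called higher in *gro-RNAi* (*Mcm10*, above) and 3 were called lower, beside 2.60% of all genes called higher and 4.86% called lower. The 3 were *PCNA* (log2 -1.25 ± 0.17, SE, limma adjusted p = 0.00507), *RfC4* (-0.78 ± 0.16, SE, limma adjusted p = 0.0242) and *RnrL* (-0.69 ± 0.16, SE, limma adjusted p = 0.0345), whose library values are given with their roles. *geminin* had the third largest difference in size, after *Mcm10* and *PCNA*, at -1.04 ± 0.31 (SE), and did not pass (limma adjusted p = 0.0737). In the fit of all 9 libraries, the genes called were thus not simply those with the largest differences. Without *gro-RNAi* replicate 1 *geminin* did pass (log2 -1.32, limma adjusted p = 0.0295). In 17 of the 35 genes all 3 *gro-RNAi* libraries lay below all 3 *Notch-RNAi* libraries, which 22.3% of all genes did. The median difference was -0.41, beside -0.18 over all genes. The *PCNA* call held without any single library, while *RfC4* and *RnrL* were called in 2 and 1 of the 6 fits that each left out 1 library and were lost on centring. Without *gro-RNAi* replicate 2 or 3, or *Notch-RNAi* replicate 1 or 2, the count of genes called lower was 1 in place of 3.

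Other genes of the pathway, on a list of 31 in the table, were counted in the same way. With *gro-RNAi* 16 were called higher (51.6%) and 0 lower, and at an unadjusted limma p under 0.05 there were 21 higher and 0 lower, beside the 20.5% and 4.41% of all genes. With *Notch-RNAi* 24 were called higher (77.4%) and 1 was called lower, the histone chaperone gene *Nap1*, which is named after its value was seen. The *Nap1* call (log2 -0.53 ± 0.15, SE, limma adjusted p = 0.0278) held in 1 of the 6 fits that each left out 1 library. The shares of all genes called are those given above. The median differences were 0.99 with *gro-RNAi* and 1.21 with *Notch-RNAi*. Of the 10 replicative polymerase and primase genes among them, 8 were called higher with *gro-RNAi* and 9 with *Notch-RNAi*. *PolE2*, a subunit of polymerase epsilon, had 6.67, 4.49 and 4.70 FPKM in *gro-RNAi*, 7.20, 8.18 and 7.68 FPKM in *Notch-RNAi* and 1.43, 0.860 and 0.773 FPKM in control libraries. Both RNAi groups lay well above the control, by log2 2.29 for *gro-RNAi* (limma adjusted p = 0.00327) and 2.84 for *Notch-RNAi*, both called. *PolA2*, *Prim1* and *Prim2*, of the complex that lays down primers, had differences of 2.04, 1.67 and 1.61 with *gro-RNAi* and 2.75, 2.36 and 2.37 with *Notch-RNAi*, all called. Their *gro-RNAi* calls were lost with only the 6 libraries compared in the fit (limma adjusted p 0.0501, 0.0501 and 0.0655). On centring, 7 of the 31 with *gro-RNAi* and 12 of the 31 with *Notch-RNAi* were called higher.

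Genes of neighbouring steps of the cell cycle were set beside these. Of 36 mitosis genes, 22 were called higher with *gro-RNAi* (61.1%, median 1.17) and 26 with *Notch-RNAi* (72.2%, median 1.35), and 0 were called lower in either, also at an unadjusted limma p under 0.05. Of 14 regulators of the step from G1 to S, 2 were called higher with *gro-RNAi* (14.3%, median 0.63) and 3 higher and 1 lower with *Notch-RNAi* (21.4% higher, median 0.64). Over all genes tested, the shares called higher were 6.26% with *gro-RNAi* and 24.4% with *Notch-RNAi*. On centring, 16 mitosis genes with *gro-RNAi* and 19 with *Notch-RNAi* were called higher, and 0 of the G1 to S regulators in either comparison. The lists differ in number and level of their genes, and no test of the difference between them was made.

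**Figure D5:**
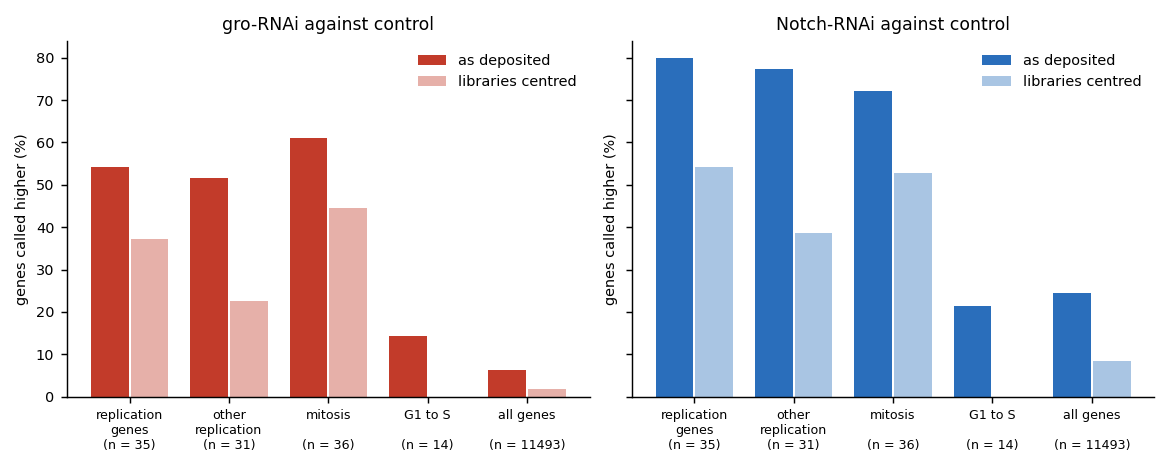
Share of genes called higher (%) in *gro-RNAi* against control (left) and *Notch-RNAi* against control (right), in the deposited values (dark bars) and after centring the libraries on the same median (pale bars). The 35 replication genes (54.3% and 80.0%), 31 other replication genes and 36 mitosis genes have taller bars than all 11493 genes (6.26% and 24.4%), the 14 G1 to S regulators have 14.3% and 21.4%, and an absent pale bar means that no gene was called.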

How the data were processed

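RNA was taken from FACS-sorted GFP+ midgut cells, amplified, and sequenced on an Illumina GA II. STAR 2.5.2b and the build BDGP6 are named in the submitters' processing notes. The tool that made the FPKM, its annotation and its use of strand are not given in the sources used here. The authors deposited 1 table of FPKM for 17481 genes in 9 libraries, already scaled by transcript length and library size, and no pair of libraries was identical. Each library came from its own pool of midguts. Whether the pools came from separate crosses is not stated, so p-values measure only the spread between these libraries, which may be technical.

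Symbols, positions and exon overlaps came from Ensembl release 115 for the same build. Members and gene lists were chosen with earlier results of these data known. Every member may be named against control. Between the RNAi groups, those called and the 3 with the largest differences are named, and from the other replication genes the 4 with the largest change among those called in each comparison with control. A planned search for promoter motifs was not made, since no sequence was used here.

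The filter kept 11493 genes whose average across the 9 libraries was 0.1 FPKM or more. On the scale log2(FPKM + 0.1), limma 3.58.1 (R 4.3.3, lmFit and eBayes with trend) fitted the 3 groups together with no block for replicate number. Benjamini-Hochberg adjustment covered every gene in the fit, and an adjusted p under 0.05 is a call. The script was tested on simulated data. Reads behind low values were estimated from steps in FPKM under 0.3 of genes with a single transcript of at least 2500 nt. In each library 74.6 to 87.9% of these values lay within 0.15 of a whole read. Alternatives changed the pseudocount (to 1 or to 0.01), the filter (an average of 1 FPKM, or no filter), the scaling (each library set to a common median, or quantile normalization), the libraries in the fit (only the 6 compared), the prior variance (one for all genes) and the block (replicate number), and left out each library in turn.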

Additional observations from a re-analysis of the deposited data

How the results depend on the processing

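Under the 9 alternative settings, the members called higher numbered 19 with *gro-RNAi* in the deposited values and 10 with only the 6 libraries compared. All other settings stayed within 1.5 times of 19 and of the 28 called higher with *Notch-RNAi*. Leaving out 1 library gave 16 to 19 and 23 to 28. Members called lower with *Notch-RNAi* numbered 0 to 1, with 0 without *Notch-RNAi* replicate 1 or 2. Members lower in *gro-RNAi* than in *Notch-RNAi* numbered 3, and 1 on centring, 1 with quantile normalization, 5 with only the 6 libraries and 1 to 3 without single libraries.

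Counts over all genes moved more. With *gro-RNAi*, the 720 higher became 212 on centring, 233 with quantile normalization and 160 with only the 6 libraries, and 260 to 744 without single libraries. The 141 lower became 309, 217 and 34 in the same settings, and 53 to 141. With *Notch-RNAi*, the 2806 higher became 958 on centring and 1067 with quantile normalization, and 1333 to 2499. The 493 lower became 1294 and 1161, and 228 to 453. Between the RNAi groups, the 299 higher in *gro-RNAi* became 512 with quantile normalization and 70 to 306 without single libraries, and the 558 lower became 67 to 858. The difference of the median member level was 1.38 with *gro-RNAi* and 1.01 on centring and 1.01 with quantile normalization. With *Notch-RNAi* it was 1.59, and 1.09 and 1.12.

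In the comparisons with control, directions turned in 4 genes, none of which was called in that comparison in the deposited values. With *gro-RNAi*, *asf1* had -0.04 on centring, and *Psf1* ranged from -0.24 to 0.33 without single libraries, with 0.02 without *gro-RNAi* replicate 2 and 0.33 without control replicate 3. With *Notch-RNAi*, centring and quantile normalization gave *Psf3* -0.32 and -0.25, *Caf1-105* -0.03 and -0.18, and *Psf1* -0.04 and -0.02. Between the RNAi groups, centring and quantile normalization each turned the direction of 5 members, *Fen1*, *Orc6*, *Sld5*, *Ts* and *dpa*, and leaving out 1 library turned 0 to 2, none of them called. The cause of these changes was not tested.

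The labels number the replicates in each group, but libraries with the same number did not deviate together (r from -0.05 to 0.07 over genes). These values gave no sign that the numbers pair the samples. They cannot exclude pairing, because there are 3 libraries per group and shared handling that touched few genes would not show. A replicate block gave 18 members higher with *gro-RNAi*, 27 with *Notch-RNAi* and 1 lower between the RNAi groups, and 443 and 335 genes in place of 720 and 558. *tos*, *Cdc6* and *Orc5* rest on fewer than 21 estimated reads in each control library.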
